A study of Homo sapiens with 12 samples.

Results

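The response of HRG1-knockout (HRG1-KO) K562 cells to sodium butyrate was measured by RNA sequencing in 6 of the 12 libraries of the study, 3 from treated and 3 from untreated knockout cells. They were chosen by their sample labels alone, and the response was described across all genes with the replicate number as a block. K562 is a human leukaemia line with erythroid and megakaryocytic features. The treated cells had received 0.75 mM sodium butyrate at 24 h after plating and again 48 h later, and they were collected 6 h after the second dose, whereas the untreated cells had the same genotype and no butyrate. The remaining 6 libraries came from WT K562 under the same pair of conditions and served to estimate the spread and to ask whether a response depended on genotype. The design text places the samples on day 8 of differentiation. How the knockout was made, how many clones it comprises and whether replicates were separate cultures is not stated in the sources used here, so the p-values measure the spread between these libraries, which may be technical.

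Butyrate is a short-chain fatty acid that inhibits histone deacetylases, enzymes that remove acetyl groups from histones and thereby tend to keep chromatin closed. In K562 cells it is a classical inducer of hemoglobin, and in many lines it slows division and raises the cyclin-dependent kinase inhibitor gene CDKN1A. HRG1, encoded by SLC48A1, moves heme out of endosomes and lysosomes into the cytosol, so the knockout asks how the erythroid programme runs when that route is missing.

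Totals in the 6 knockout libraries ran from 20403891 to 30348538 counts, so that 3 counts, taken as the limit of detection, were worth 0.0967 to 0.161 CPM (counts scaled to the TMM-adjusted size of a library). Intervals and this limit cover counting error only. The share of counts on the ribosomal RNA gene RNA28SN5 ran from 0.673% to 3.36% and was highest in replicate 1 of each condition, and its part in the results was not tested. On the first principal component of the knockout libraries, which carried 54.7% of the variance, the untreated libraries lay at -83.5, -60.5 and -25.5 and the treated ones at -2.06, 85.6 and 86.0. Treated replicate 1 therefore lay between the untreated libraries and the other treated ones. Erythroid markers were present in every knockout library, with GATA1 at 175 to 285 CPM and KLF1 at 49.7 to 180 CPM.

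SLC48A1 (chromosome 12, 47753934 to 47782751, GRCh38.p14), the gene the knockout targets, stood at 2.94, 8.32 and 6.55 CPM in untreated replicates 1, 2 and 3 and at 6.02, 7.99 and 10.1 CPM in the treated ones. The 6 WT libraries held 58.9 to 83.8 CPM, above every knockout library. Within the knockout the conditions overlapped, and the log2 difference of 0.46 (SE 0.31) was not called by edgeR's quasi-likelihood test (Benjamini-Hochberg adjusted p = 0.368; exact two-sided permutation test p = 0.5, where 0.1 is the smallest p that 3 libraries against 3 can give).

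In butyrate-treated knockout cells more genes rose than fell, and the rises were larger in fold than the falls. Of 15805 genes tested, 1852 were called at an adjusted p under 0.05 (11.7%), 1232 of them higher (7.8%) and 620 lower (3.92%) in treated cells. The median log2 change was 2.25 among the rises and -0.79 among the falls, against -0.0023 over all tested genes. Among the rises, 1047 were at least 2-fold, 682 at least 4-fold and 244 at least 16-fold, whereas among the falls 147 were at least 2-fold and 15 at least 4-fold. All 3 same-numbered pairs moved in the called direction for 1204 of the 1232 rises and 619 of the 620 falls. Over all 15805 tested genes, 4110 were higher and 4272 lower in all 3 pairs. The fit that made the calls was blocked on these numbers, so the agreement describes the calls and does not test them. The treated and untreated libraries did not overlap for 3851 of all tested genes (24.4%), for 933 of the rises and for 518 of the falls.

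The number of calls depended on single libraries and on the block, the direction did not. It was 401 without untreated replicate 2, 814 without untreated replicate 3, 534 without treated replicate 2 and 1023 without treated replicate 3, and 537 (3.4%) when the replicate number was left out of the model. Every call of that last fit was also a call of the blocked fit. Scaling by library size alone shifted the median of all genes by 0.114 on the log2 scale and gave 83.3% of calls as higher, against 66.5% with TMM. No gene called in the blocked fit was called in the opposite direction under any of these settings.

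**Figure D1:**
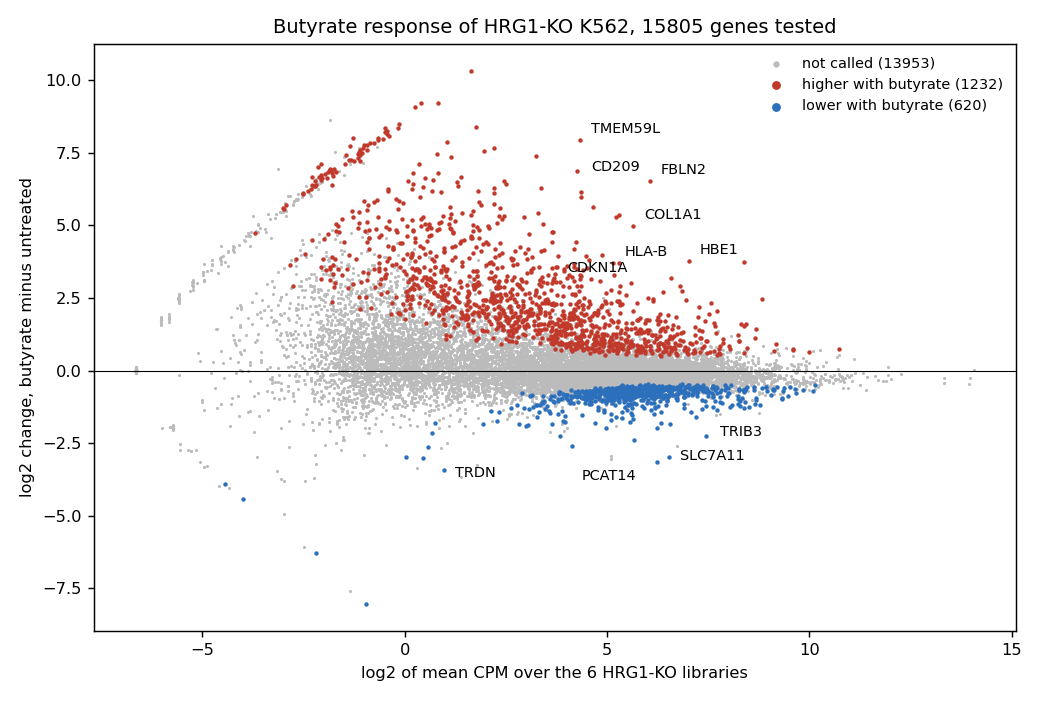
Each point is 1 tested gene, with the log2 of its mean CPM over the 6 HRG1-KO libraries on the x axis and its log2 change (butyrate minus untreated) on the y axis. Red points are the 1232 genes called higher, blue points the 620 called lower, and the rises reach much larger changes than the falls.

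The rises started from lower levels than the falls. Per kilobase of merged exon, the median untreated level was 0.77 CPM per kb for the rises, 18.8 CPM per kb for the falls and 5.64 CPM per kb for all tested genes with a known length (14844 of 15805). Among genes under 0.1 CPM per kb before treatment, 23.2% were called higher and 0.0755% lower, and among those at 100 CPM per kb or more, 1.25% were called higher and 11.5% lower. There were 156 rises with 3 counts or fewer in every untreated knockout library. A gene that low passed the filter only through libraries in which it was higher, and the same untreated libraries set both the level and the change, so these shares are a description of the calls.

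**Figure D2:**
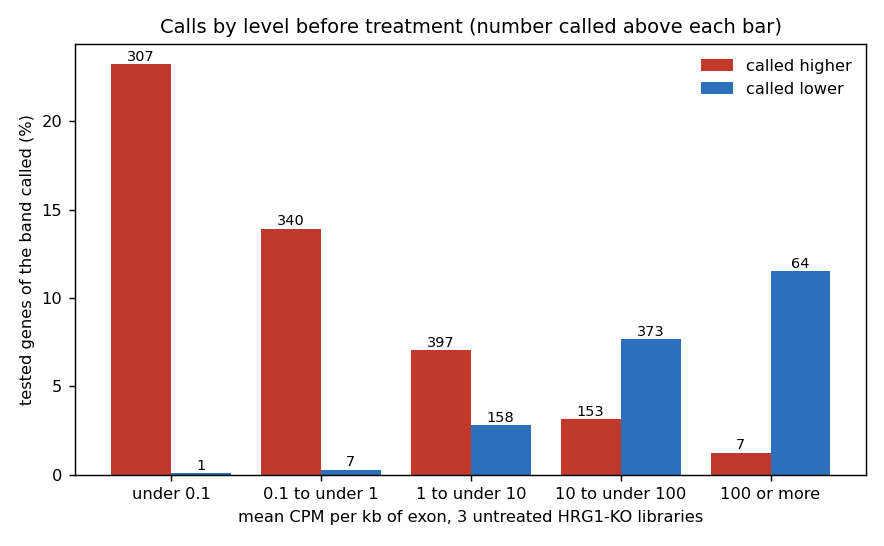
Bars give the percentage of tested genes called higher (red) or lower (blue) in 5 bands of the mean level in the 3 untreated HRG1-KO libraries, in CPM per kb of exon, with the number of called genes above each bar. The share called higher falls from 23.2% in the lowest band to 1.25% in the highest, while the share called lower climbs from 0.0755% to 11.5%.

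The calls were spread over all chromosomes, with unequal shares. On chromosome 19, 12.9% of 1150 tested genes were called higher and 1.83% lower. On chromosome 4, 2.9% of 482 were called higher and 8.3% lower. By gene type, 8.72% of tested protein-coding genes were called higher and 4.41% lower, against 3.37% and 1.1% of long non-coding RNAs.

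The 12 largest rises among genes with at least 50 counts in every treated library held neuronal, extracellular and immune genes that stood at no more than 2.84 CPM in any untreated knockout library. TMEM59L (chromosome 19, 18612870 to 18621039), a membrane protein found mostly in brain, went from 0, 0.19 and 0.368 CPM in untreated replicates 1, 2 and 3 to 28.1, 57.2 and 35.5 CPM in treated ones. Its log2 change was 7.94 (SE 0.75, edgeR adjusted p = 0.000187). FBLN2 (chromosome 3, 13549125 to 13638404), the matrix glycoprotein fibulin-2, went from 0.535, 1.14 and 2.84 CPM to 85.2, 233 and 76.3 CPM, which gave 6.52 on the log2 scale (SE 0.62, adjusted p = 0.000187 by edgeR). Both genes were far above every untreated library in every treated one.

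CD209, a C-type lectin of dendritic cells, stood at 0.107, 0.285 and 0.334 CPM untreated and at 47.3, 54.6 and 11.4 CPM treated (log2 change 6.89, SE 0.65). IGFBP5, a binding protein of insulin-like growth factors, stood at 0.107, 0.238 and 0 CPM and then at 27.0, 24.3 and 5.7 CPM (log2 change 7.39, SE 0.90). In both, treated replicate 3 was the lowest of its group. All 6 WT libraries held 0 counts of CD209.

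SNCB, which encodes beta-synuclein of nerve terminals, went from 0.268, 0.0951 and 0.334 CPM to 9.23, 29.7 and 22.4 CPM. L1CAM, a neural cell adhesion molecule, went from 0, 0 and 0.435 CPM to 4.13, 15.1 and 8.15 CPM. CEACAM22P, a transcribed pseudogene of the CEACAM family that may share reads with its relatives, went from 0.161, 0.238 and 0.0334 CPM to 7.21, 18.6 and 8.02 CPM. In all 3 genes treated replicate 1 was the lowest treated library and still lay well above the untreated ones.

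For 4 of the 12, every untreated library held 3 counts or fewer, so the ratio is given with its 95% counting interval over the summed libraries. ENTPD2, an ectonucleotidase that breaks down extracellular ATP, had 3 counts untreated and 809 treated, a ratio of 226 (77.1 to 1098). SLC52A3, a riboflavin transporter, had 4 and 686 counts, a ratio of 144 (55.9 to 529). PCDH1, a protocadherin, had 3 and 443 counts, a ratio of 124 (42.1 to 602). ITLN1, a lectin that binds microbial sugars, had 1 and 277 counts, a ratio of 232 (41.3 to 9203). These 4 lay at or under the limit of detection in the untreated knockout libraries, and the wide upper limits reflect how few counts the untreated libraries held.

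Without the replicate number in the model, all 12 rises kept an adjusted p under 0.05, and 11 of 12 kept it in each of the 6 fits that left out 1 knockout library. The exception was ITLN1, whose edgeR adjusted p reached 0.0777 without treated replicate 2.

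The 12 largest falls were smaller in size and held several genes of amino acid supply and of the stress response that governs it. LEPR (chromosome 1, 65420652 to 65641559), the leptin receptor gene, stood at 128, 121 and 128 CPM untreated and at 28.9, 39.2 and 39.9 CPM treated. The groups lay far apart and its log2 change was -1.80 (SE 0.20, edgeR adjusted p = 0.000443). LEPR shares its first exons with LEPROT, and how the authors assigned such reads is not given in the sources used here.

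SLC7A11 (chromosome 4, 138164097 to 138242349), the transporter subunit that imports cystine in exchange for glutamate, stood at 112, 234 and 148 CPM untreated and at 12.7, 7.86 and 45.1 CPM treated (log2 change -2.97, SE 0.52). PCAT14, a long non-coding RNA, stood at 82.6, 154 and 165 CPM and then at 34.5, 8.39 and 11.1 CPM (log2 change -3.15, SE 0.51). TRDN, whose protein triadin sits in the calcium store of muscle, stood at 3.26, 2.85 and 4.65 CPM and then at 0.184, 0.33 and 0.483 CPM (log2 change -3.41, SE 0.62). All 3 fell in every same-numbered pair, and each passed the test in all 6 fits without 1 knockout library.

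BCL2, the founding inhibitor of apoptosis in its family, stood at 5.03, 17.8 and 10.5 CPM untreated and at 1.88, 3.47 and 3.48 CPM treated (log2 change -1.84, SE 0.46). RCN1, a calcium-binding protein of the endoplasmic reticulum, stood at 38.4, 48.3 and 64.4 CPM and then at 13.0, 11.96 and 13.5 CPM (log2 change -1.97, SE 0.34). In WT cells RCN1 was close to absent, at 0 to 0.57 CPM. The long non-coding RNAs LINC00200 and LINC02513 fell by 1.91 and 1.83 on the log2 scale. Among the 12 falls, 5 kept an adjusted p under 0.05 in each of the 6 fits that left out 1 library, and 8 kept it without the block. TRIB3, PSAT1, BCL2 and LINC02513 did not pass without the block.

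**Figure D3:**
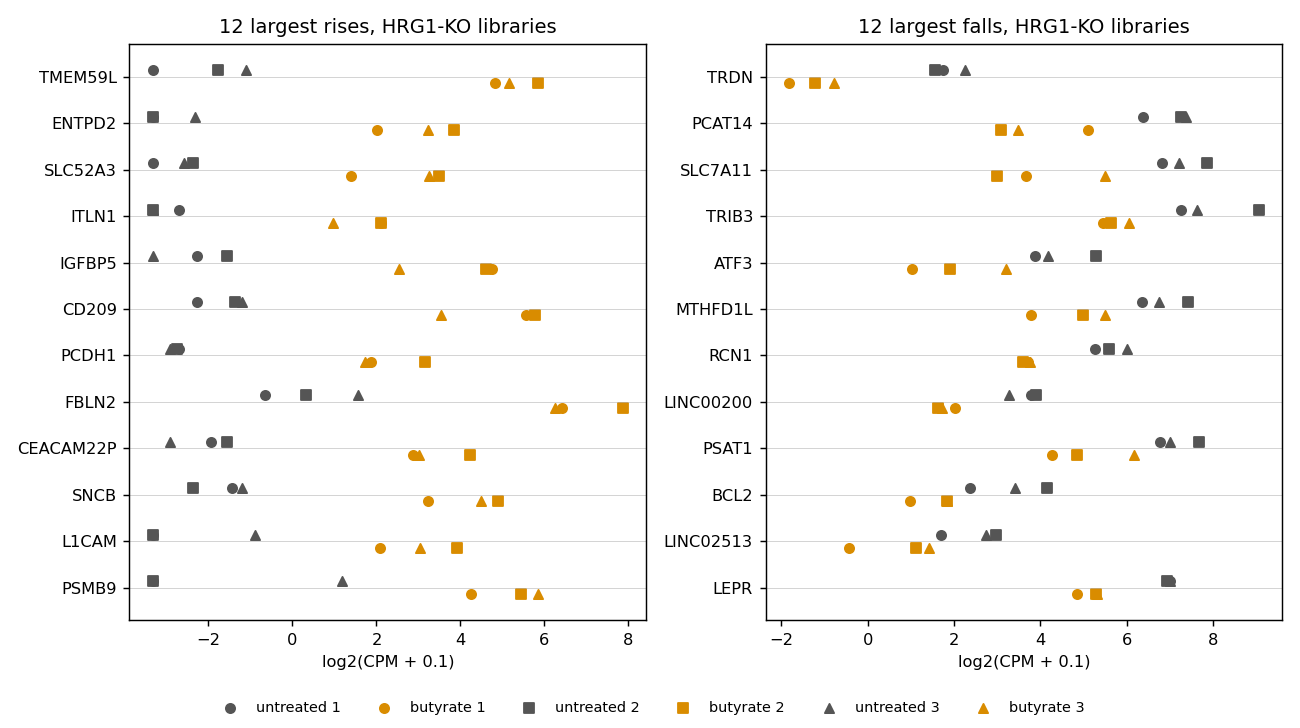
Each row is a gene, each symbol 1 HRG1-KO library (circle, square and triangle for replicates 1, 2 and 3, grey untreated, orange butyrate), on a log2(CPM + 0.1) axis. On the left, the treated libraries of all 12 rises lie to the right of every untreated one. On the right, the 12 falls start higher and shift by less.

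Genes of the amino acid response and of amino acid supply fell in butyrate-treated knockout cells, and no member was called higher. When amino acids run short or proteins misfold, cells translate the transcription factor ATF4, which with partners such as CEBPG raises genes that import amino acids, make serine, glycine and asparagine, and charge tRNAs. In 4 lists that cover this programme, 67 of 69 genes were tested, 25 were called lower against 3.92% of all tested genes, 0 were called higher, and 61 had a negative log2 change. By list, 6 of 19 genes of the ATF4 and CHOP stress response, 7 of 16 of serine, one-carbon, asparagine and proline synthesis, 4 of 12 amino acid transporters and 8 of 20 cytosolic aminoacyl-tRNA synthetases were called lower. Their median log2 changes were -1.30, -1.42, -1.02 and -0.77, against -0.0023 over all tested genes. The lists were chosen with earlier results of these data known. Their members SLC7A11, TRIB3, ATF3, MTHFD1L and PSAT1 are also among the 12 largest falls. These counts and medians are therefore a description and not a test.

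To show how often these promoters hold a known element, TGATGNAA was sought, the core of the amino acid response element. The search covered both strands from 250 bases before to 50 after the start site in the RefSeq promoter table (GRCh38.p14). The motif was found in 14 of the 56 promoters of these lists that the table holds (25%). The share was 1.69% of 11688 promoters of tested genes, 4.17% of those called lower and 0.913% of those called higher. The lists were gathered around the amino acid response, so their share describes the choice of genes and tests nothing. Among the members called lower, 7 of 18 held it, and the 30 bases around each match are shown on the strand of the gene, with the match in capitals.
ATF3: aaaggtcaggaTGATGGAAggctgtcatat
MTHFD1L: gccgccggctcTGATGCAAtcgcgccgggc
SLC7A1: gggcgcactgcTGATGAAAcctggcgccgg
SLC38A1: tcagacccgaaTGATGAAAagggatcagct
IARS1: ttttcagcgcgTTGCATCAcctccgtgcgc
MARS1: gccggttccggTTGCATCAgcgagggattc
TARS1: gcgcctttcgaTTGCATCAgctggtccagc

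The 3 synthetase promoters carry the motif on the strand opposite to the gene, with the same 8 letters, TTGCATCA. The windows lie at chr1:212565205-212565234 (ATF3), chr6:150866346-150866375 (MTHFD1L), chr13:29595663-29595692 (SLC7A1, minus strand), chr12:46266502-46266531 (SLC38A1, minus strand), chr9:92293692-92293721 (IARS1, minus strand), chr12:57488053-57488082 (MARS1) and chr5:33440956-33440985 (TARS1). The match begins 191 bases before the start site in ATF3 and 129 in MTHFD1L, and within 13 bases of it in the other 5. A match describes letters and not a bound factor. The other members with a match, CHAC1, HERPUD1, ASNS, SLC3A2, AARS1, CARS1 and NARS1, had negative log2 changes between -2.11 and -0.65 and were not called.

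Among the regulators, ATF4 itself stood at 821, 793 and 872 CPM untreated and at 302, 307 and 742 CPM treated (log2 change -0.95, SE 0.28, edgeR adjusted p = 0.0477). Treated replicate 3 was close to the untreated libraries, and the call was lost without the block (adjusted p = 0.165). CEBPG, a bZIP partner of ATF4, stood at 95.5, 164 and 98.5 CPM and then at 40.2, 33.4 and 53.2 CPM (log2 change -1.44, SE 0.31). TRIB3, a pseudokinase that ATF4 and CHOP induce, stood at 153, 535 and 197 CPM and then at 43.5, 49.4 and 66.4 CPM (log2 change -2.27, SE 0.59). Untreated replicate 2 was the highest library for TRIB3 and CEBPG, and the groups did not overlap in any of these genes.

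ATF3, a stress-induced repressor, stood at 14.5, 38.9 and 17.9 CPM untreated and at 1.93, 3.67 and 9.15 CPM treated (log2 change -2.26, SE 0.49). STC2, a secreted glycoprotein, and XBP1, a transcription factor of the unfolded protein response, fell by 1.80 and 1.30 on the log2 scale. DDIT3, which encodes CHOP, stood at 38.7, 46.8 and 30.4 CPM and then at 17.0, 7.0 and 31.8 CPM. Its groups overlapped and it was not called (log2 change -1.05, edgeR adjusted p = 0.167).

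In serine and one-carbon synthesis, PSAT1, which makes phosphoserine, stood at 109, 206 and 129 CPM untreated and at 19.1, 28.7 and 71.9 CPM treated (log2 change -1.86, SE 0.55). MTHFD1L, the mitochondrial enzyme that releases formate, stood at 82.0, 172 and 108 CPM and then at 13.6, 31.6 and 45.4 CPM (log2 change -1.98, SE 0.41). ALDH1L2, which oxidises mitochondrial formyl-tetrahydrofolate, stood at 30.02, 143 and 85.1 CPM and then at 4.5, 11.6 and 31.6 CPM (log2 change -2.40, SE 0.57). In each gene treated replicate 3 was the highest treated library, and for ALDH1L2 it reached above untreated replicate 1.

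PSPH, which removes the phosphate in the last step of serine synthesis, SHMT2 and MTHFD2, which pass its carbon into folate, and CTH, which makes cysteine, fell by 1.59, 1.14, 1.14 and 1.78 on the log2 scale. ASNS, asparagine synthetase, stood at 4.66, 4.66 and 3.64 CPM untreated and at 0.413, 0.231 and 3.22 CPM treated. Treated replicate 3 was again near the untreated level, and ASNS was not called (log2 change -1.91, SE 0.77, edgeR adjusted p = 0.127).

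Among the transporters, SLC38A2, which takes up small neutral amino acids, stood at 235, 417 and 265 CPM untreated and at 145, 145 and 133 CPM treated (log2 change -1.09, SE 0.18, edgeR adjusted p = 0.00346). SLC7A1, the carrier of arginine and lysine, stood at 156, 355 and 159 CPM and then at 54.0, 92.4 and 68.4 CPM (log2 change -1.58, SE 0.43). SLC38A1, a glutamine carrier, stood at 91.5, 143 and 85.5 CPM and then at 39.96, 36.3 and 35.1 CPM (log2 change -1.51, SE 0.34). Together with SLC7A11 these were the 4 transporters called, and their groups did not overlap.

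Among the synthetases, each of which joins an amino acid to its tRNA, LARS1 stood at 365, 460 and 455 CPM untreated and at 175, 242 and 244 CPM treated (log2 change -0.96, SE 0.18, edgeR adjusted p = 0.00714). IARS1 stood at 480, 642 and 416 CPM and then at 211, 208 and 214 CPM (log2 change -1.25, SE 0.26). GARS1, YARS1, MARS1, TARS1 and EPRS1 fell by 0.70 to 1.25 on the log2 scale. These decreases were small in fold and large in counts, since all 7 stood above 100 CPM in every untreated library.

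The size of this group varied with the library. Relative to the mean of the untreated libraries, the median over the 67 genes on the log2(CPM + 0.5) scale was -0.25, 0.37 and -0.10 in untreated replicates 1, 2 and 3 and -1.37, -1.24 and -0.51 in the treated ones. Of the 67, 25 were called with all libraries. Leaving out untreated replicates 1, 2 and 3 in turn left 24, 3 and 7 called lower, and leaving out treated replicates 1, 2 and 3 left 9, 3 and 35. The fit with no replicate block called 8, and the DESeq2 Wald test 33. The median stayed between -1.44 and -0.80 in all of them. In WT cells 3 of these genes were called lower with butyrate, and none of the 67 was called in the test of the difference between genotypes (3 genes, 0.019%, were called in that test over all genes).

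**Figure D4:**
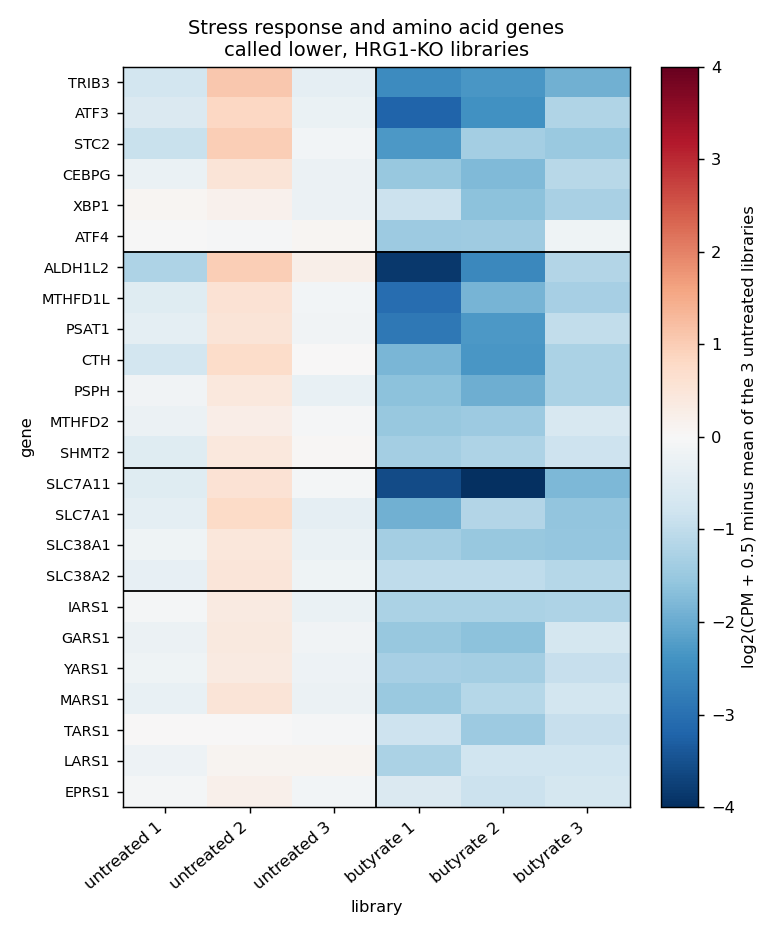
Colour gives log2(CPM + 0.5) minus the mean of the 3 untreated libraries for 24 of the 25 called genes (rows, with lines between the 4 lists) in the 6 HRG1-KO libraries (columns). The treated columns are blue throughout, faintest in butyrate replicate 3, and untreated replicate 2 is the reddest of the untreated columns.

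Within the erythroid programme, embryonic globin, several enzymes of heme synthesis and some red cell membrane genes rose, while the main fetal globins were not called. Of 9 globin genes tested, 2 were called higher, HBE1 and HBA2 (22.2%, against 7.8% of all tested genes). A call lower was made for 0 of them, and the median log2 change was 0.66. HBE1 (chromosome 11, 5268345 to 5269945), the embryonic beta-like chain, stood at 26.3, 17.9 and 7.36 CPM untreated and at 419, 222 and 92.0 CPM treated (log2 change 3.77, SE 0.43, edgeR adjusted p = 0.000486). Every treated library exceeded every untreated one, and both groups were highest in replicate 1 and lowest in replicate 3. HBE1 was called in each of the 6 fits without 1 library, and HBA2 in 1 of them.

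HBA1 and HBA2, the near-identical alpha chains, share reads and were also summed. The sum stood at 423, 287 and 189 CPM untreated and at 661, 651 and 624 CPM treated, with no overlap and an exact two-sided permutation p of 0.1, the smallest possible. The sum of the fetal chains HBG1 and HBG2 stood at 2717, 1502 and 1908 CPM and then at 3335, 2135 and 2909 CPM. The treated library was the higher one in all 3 same-numbered pairs, while the groups overlapped (exact two-sided permutation p = 0.2, from a test that does not use the numbers). HBZ, the embryonic alpha-like chain, overlapped as well and was not called (log2 change 0.76, edgeR adjusted p = 0.343).

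Of 15 genes of heme synthesis and its mitochondrial supply, 4 were called higher and 1 lower (33.3% together, against 11.7% of all tested genes). The median was 0.33, with 2 called without untreated replicate 2 and 3 without untreated replicate 3 or treated replicate 2. ALAD, the second enzyme of the pathway, stood at 23.9, 19.0 and 19.9 CPM untreated and at 53.4, 36.5 and 52.9 CPM treated (log2 change 1.17, SE 0.22). UROS, uroporphyrinogen III synthase, stood at 25.7, 23.6 and 17.1 CPM and then at 41.3, 59.7 and 39.0 CPM (log2 change 1.09, SE 0.20). SLC25A37, the mitochondrial iron importer mitoferrin-1, stood at 233, 162 and 214 CPM and then at 489, 380 and 363 CPM (log2 change 1.02, SE 0.22). In these 3 genes every treated library lay above every untreated one, and all 3 passed without the block.

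ALAS1, the housekeeping form of the first enzyme, rose by 0.74 on the log2 scale (SE 0.20). CLPX, the chaperone that activates and turns over this enzyme, fell by 0.61 (SE 0.15). Neither passed without the block. ALAS2, the erythroid form, stood at 171, 164 and 207 CPM untreated and at 316, 288 and 266 CPM treated. The groups did not overlap, and it was not called (log2 change 0.70, SE 0.32, edgeR adjusted p = 0.171). In heme transport and degradation 1 of 11 genes was called, BLVRA, the reductase of biliverdin, with a log2 change of 1.00. That share, 9.09%, lay near the 7.8% called higher over all tested genes, and the count was 0 without the block and without any knockout library other than untreated replicate 3.

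Among 24 red cell membrane and blood group genes, 7 were called higher (29.2%, against 7.8% of all tested genes) and 0 lower. The median was 0.21, and 5 were called without the block. The count was 1 without untreated replicate 2, 3 without untreated replicate 3, 4 without treated replicate 1 and 2 without treated replicate 2. SLC4A1, the anion exchanger band 3, stood at 2.14, 1.05 and 1.97 CPM untreated and at 10.6, 26.9 and 17.3 CPM treated (log2 change 3.58, SE 0.69). TSPAN33, a tetraspanin of erythroid precursors, stood at 0, 0.809 and 1.91 CPM and then at 3.31, 21.4 and 19.7 CPM (log2 change 4.06, SE 0.59). RHD and RHCE, close copies that can share reads, rose by 1.21 and 1.28 on the log2 scale, and CR1, AQP1 and CD44 were the other members called.

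Of 19 erythroid regulators, 2 were called higher and 3 lower (26.3% together, against 11.7% of all tested genes). The median was 0.22, with 1 called without untreated or treated replicate 2 and 3 without replicate 3 of either group. ZFPM1, the GATA1 cofactor FOG1, stood at 29.4, 34.4 and 25.1 CPM untreated and at 75.8, 118 and 55.1 CPM treated (log2 change 1.45, SE 0.26). SPI1, the myeloid factor PU.1 that opposes GATA1, stood at 7.06, 12.9 and 18.6 CPM and then at 32.8, 69.3 and 40.3 CPM (log2 change 1.84, SE 0.36). LIN28B, an RNA-binding protein of the fetal programme, stood at 219, 203 and 144 CPM and then at 145, 60.9 and 36.0 CPM (log2 change -1.44, SE 0.29). ZFPM1 and SPI1 separated the groups, whereas in LIN28B treated replicate 1 reached the level of untreated replicate 3 and the call was lost without the block (adjusted p = 0.189).

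JAK2, the kinase of the erythropoietin receptor, and STAT5A, its transcription factor, fell by 1.13 and 1.27 on the log2 scale, and neither passed without the block. GATA1 (log2 change 0.33) and KLF1 (0.24), the central erythroid factors, were not called. Of 18 late erythroid enzymes and carriers, FAXDC2, TRIM10 and ALOX15 were called higher and the amino acid carrier SLC43A1 lower. Together they made 22.2%, against 11.7% of all tested genes. Only 1 of these 4 calls was made without the block, and 2 without untreated replicate 2, untreated replicate 3 or treated replicate 2. In iron handling 2 of 18 were called higher (11.1%, against 7.8% of all tested genes), with 1 called without the block and 0 without untreated replicate 2. TFR2, the second transferrin receptor, stood at 4.28, 6.37 and 16.5 CPM untreated and at 29.4, 27.1 and 32.6 CPM treated (log2 change 1.77, SE 0.36). BMP6 was at 0 in all untreated libraries and at 0.184, 3.01 and 0.999 CPM treated, at least 10.4-fold higher against a floor of 3 counts per library.

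Several megakaryocyte and platelet genes rose. Of 20 members, 13 were tested, and 5 held no count in any knockout library. Among the 13, 6 were called higher (46.2%, against 7.8% of all tested genes) and 0 lower (median 1.55). The call held for 3 without the block, and for 3 without untreated replicate 2, untreated replicate 3 or treated replicate 2. The summed level of the list was 109 to 132 CPM over the untreated libraries and 202 to 315 CPM over the treated ones. ITGA2B, the platelet integrin chain CD41, stood at 4.55, 12.2 and 18.9 CPM untreated and at 48.2, 64.1 and 57.8 CPM treated (log2 change 2.31, SE 0.43). Its partner ITGB3 stood at 0.535, 0.761 and 0.936 CPM and then at 4.91, 17.3 and 4.93 CPM (log2 change 3.53, SE 0.58). THBS1, the platelet and matrix protein thrombospondin-1, stood at 6.05, 6.23 and 2.27 CPM and then at 48.5, 44.3 and 16.7 CPM (log2 change 2.90, SE 0.29). All 3 separated the groups and passed in each fit without 1 library, and CD9, GP6 and RGS18 were the other members called.

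**Figure D5:**
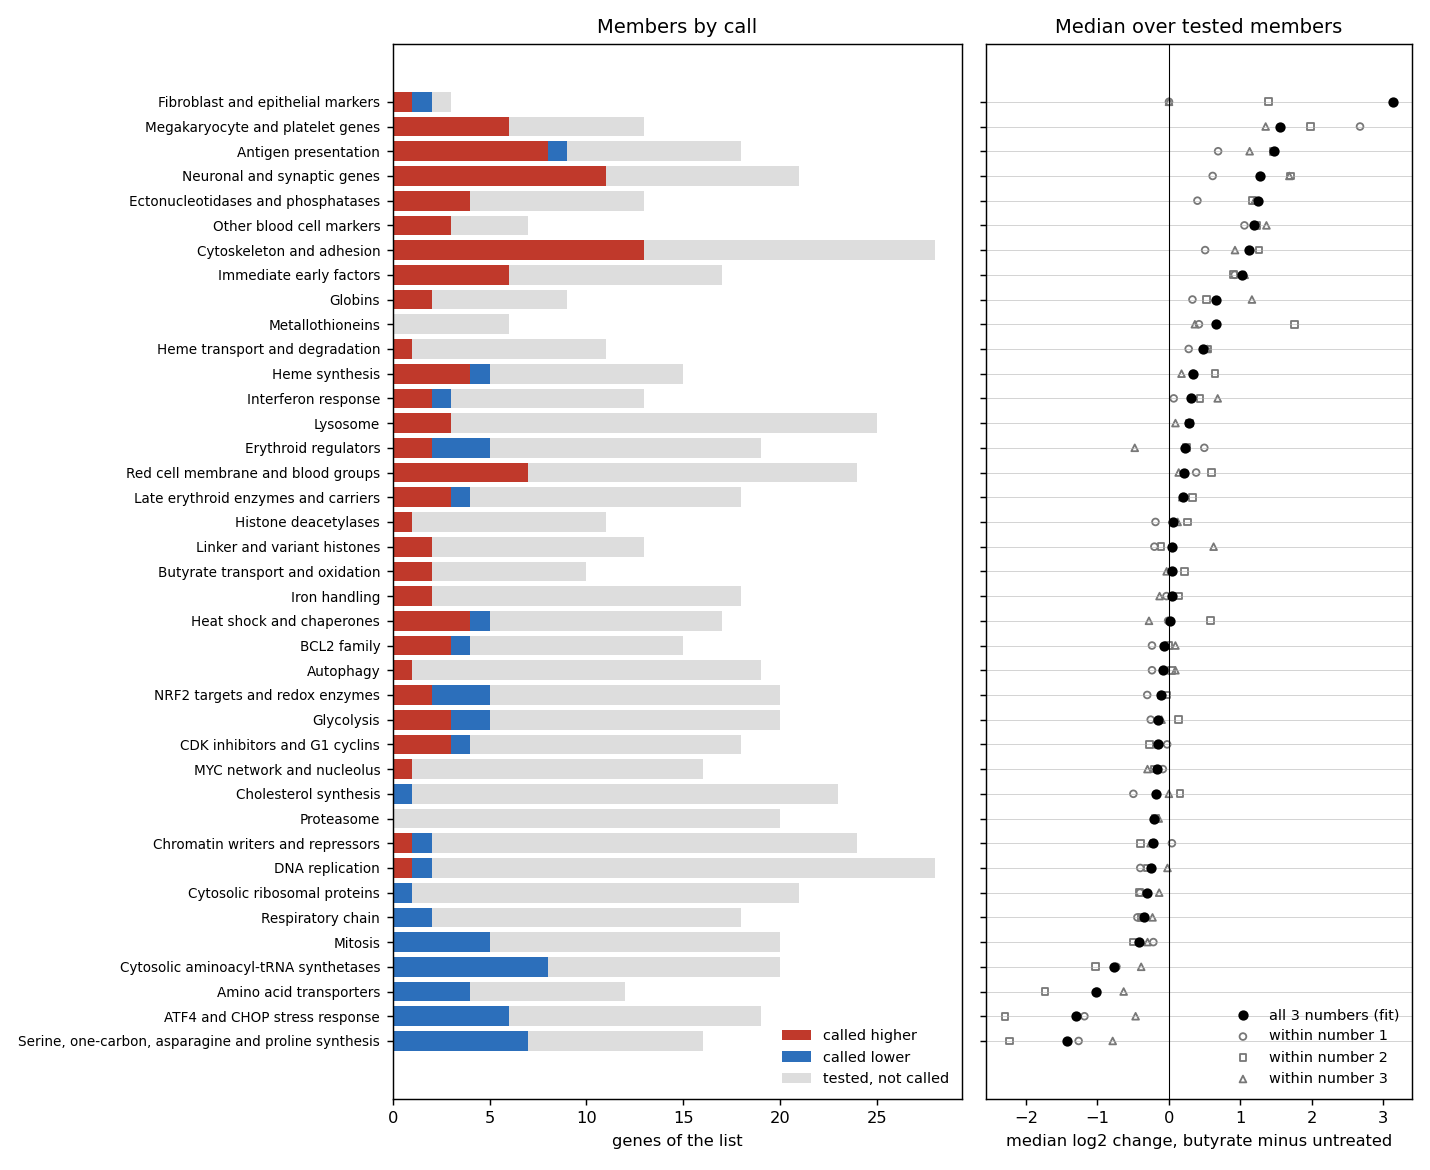
For each of 39 gene lists, sorted by median, the left panel counts tested members called higher (red), called lower (blue) or not called (grey). The right panel gives the median log2 change from the fit (black) and within each replicate number (open symbols), and the 4 amino acid lists form the lower end at -1.42 to -0.77.

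CDKN1A, which encodes the cyclin-dependent kinase inhibitor p21, rose in every treated library, and 5 of 20 mitotic genes fell by smaller amounts. CDKN1A stood at 1.44, 2.52 and 3.38 CPM untreated and at 6.11, 37.1 and 24.9 CPM treated (log2 change 3.01, SE 0.33, edgeR adjusted p = 0.000445). Treated replicate 1 was the lowest treated library and lay above all untreated ones. Its promoter is shown because GC boxes before its start site are known to carry its response to deacetylase inhibitors. The 250 bases before the RefSeq start site (chr6:36678464-36678713, GRCh38.p14, plus strand) are printed with each GGGCGG match in capitals.
CDKN1A: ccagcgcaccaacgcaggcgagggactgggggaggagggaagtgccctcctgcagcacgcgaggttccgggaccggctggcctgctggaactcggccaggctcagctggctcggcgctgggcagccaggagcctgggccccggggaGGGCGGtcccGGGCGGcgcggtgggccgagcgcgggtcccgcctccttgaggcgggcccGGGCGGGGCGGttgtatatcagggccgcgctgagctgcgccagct

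It held 4 matches to GGGCGG beginning at positions -104 to -40 from the start site, the last 2 overlapping by 1 base, and its GC content was 76.4%. GC boxes are common: 67.4% of the promoters of tested genes held GGGCGG on either strand, as did 70.7% of those called higher and 63.2% of those called lower.

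Of 18 cyclin-dependent kinase inhibitor and G1 cyclin genes, 3 were called higher and 1 lower (22.2% together, against 11.7% of all tested genes). The median was -0.16, and 2 were called without untreated replicate 2. CDKN2D, the inhibitor p19, stood at 2.84, 3.23 and 4.01 CPM untreated and at 16.4, 11.99 and 12.7 CPM treated (log2 change 1.99, SE 0.32). CCND1, cyclin D1, stood at 0.589, 0.143 and 0.903 CPM and then at 1.33, 19.2 and 9.35 CPM (log2 change 4.05, SE 0.86). CDK6, a kinase partner of D cyclins, stood at 115, 137 and 102 CPM and then at 77.7, 73.4 and 50.2 CPM (log2 change -0.84, SE 0.22). CCND1 in treated replicate 1 was barely above the untreated libraries, and CDK6 was not called without the block.

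Among 20 mitotic genes 5 were called lower (25%, against 3.92% of all tested genes) and 0 higher (median -0.41), and 2 without the block. The count was 1 without either untreated or treated replicate 2, and 2 without untreated replicate 3. TTK, a spindle checkpoint kinase, stood at 64.4, 71.6 and 52.9 CPM untreated and at 26.6, 28.9 and 38.4 CPM treated (log2 change -1.02, SE 0.19, edgeR adjusted p = 0.00649). AURKA, BUB1B, CCNB1 and CENPE fell by 0.59 to 0.87 on the log2 scale. In DNA replication 1 of 28 genes was called higher (MCM3, 0.66) and 1 lower (RFC3, -0.69), together 7.14%, against 11.7% of all tested genes. Neither count held without the block (0 called), and 0 to 1 were called in the fits without 1 library. Of 16 genes of the MYC network and nucleolus 1, MAX, was called (6.25%, against 11.7% of all tested genes). The count was 0 without the block or without any 1 knockout library.

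Many neuronal and synaptic genes that were low before treatment rose. Of 32 members 21 were tested, 11 were called higher (52.4%, against 7.8% of all tested genes) and 0 lower. The median was 1.27, and 5 were called without the block. The list was chosen with earlier results of these data known and holds TMEM59L and SNCB, of the 12 largest rises. Members near the limit of detection before treatment passed the filter only through libraries in which they were higher, so the share and the median are a description. The fits without 1 library called between 4 (without untreated or treated replicate 2) and 10 (without treated replicate 1), with 6 without untreated replicate 3 and 7 without untreated replicate 1 or treated replicate 3. Beside TMEM59L and SNCB, SYN1, a synaptic vesicle protein, stood at 0.428, 0.333 and 0.669 CPM untreated and at 1.93, 9.35 and 7.51 CPM treated (log2 change 3.45, SE 0.57). SYT5, a synaptotagmin, stood at 1.28, 2.57 and 3.21 CPM and then at 3.9, 11.6 and 14.3 CPM (log2 change 2.01, SE 0.33). TUBB3, the neuronal beta-tubulin, stood at 2.41, 2.28 and 2.57 CPM and then at 3.72, 11.5 and 12.1 CPM (log2 change 1.83, SE 0.38). Treated replicate 1 was the lowest treated library in each of these, and within number 1 the list's median was 0.61 against 1.70 and 1.68 within numbers 2 and 3. SYP, SYT11, VGF, RIMS3, CLSTN3 and RAB3A were the other members called.

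Of 19 ectonucleotidase and phosphatase genes 13 were tested, and 5 held no count in any knockout library. Among the 13, 4 were called higher (30.8%, against 7.8% of all tested genes) and 0 lower (median 1.25). The same number passed without the block. A member near the limit of detection before treatment, such as ENTPD2, passed the filter only through libraries in which it was higher. The share and the median are therefore a description. Beside ENTPD2, PHOSPHO1, a phosphatase of mineralisation that is also found in red cells, stood at 0, 0.0951 and 0.267 CPM untreated and at 1.98, 10.7 and 8.89 CPM treated (log2 change 5.71, SE 0.78). ALPL, the tissue-nonspecific alkaline phosphatase, stood at 0.214, 0.285 and 0.134 CPM and then at 5.79, 9.98 and 3.03 CPM (log2 change 4.81, SE 0.60). DUSP5, a phosphatase of ERK, rose by 2.22. Alkaline phosphatase activity is a long-used readout of butyrate action in cultured cells.

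HLA class I genes and parts of the antigen presentation machinery rose after butyrate, with wide differences among untreated libraries. Of 18 tested, 8 were called higher and 1 lower (50% together, against 11.7% of all tested genes, median 1.47). The count was 4 without the block, 4 without untreated replicate 2 and 5 without treated replicate 2. HLA-B stood at 2.94, 2.76 and 12.3 CPM untreated and at 50.2, 55.9 and 90.5 CPM treated (log2 change 3.72, SE 0.48, edgeR adjusted p = 0.00097). PSMB9, an immunoproteasome subunit, stood at 0, 0 and 2.17 CPM and then at 19.1, 43.3 and 57.7 CPM (log2 change 6.16, SE 0.97). NLRC5, the transactivator of HLA class I genes, stood at 6.26, 7.47 and 8.99 CPM and then at 44.3, 44.7 and 28.2 CPM (log2 change 2.39, SE 0.43). Untreated replicate 3 was the highest of its group in all 3.

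TAP1, the peptide transporter whose gene lies next to PSMB9, stood at 6.85, 10.3 and 34.0 CPM untreated and at 9.28, 81.9 and 87.1 CPM treated. Here the groups overlapped, and the call (log2 change 1.49, SE 0.38) was lost without the block (adjusted p = 0.308). PSMB8, another immunoproteasome subunit, stood at 0, 2.28 and 16.6 CPM and then at 12.2, 45.7 and 56.5 CPM, overlapped too and was not called without the block. HLA-C and HLA-E, class I genes that can share reads with HLA-B, rose by 2.17 and 1.44. ULBP1, a stress ligand of the receptor NKG2D, was the member called lower (log2 change -1.73). Of 13 interferon response genes, IFI6 and IFI27 were called higher and IFITM1 lower (23.1% together, against 11.7% of all tested genes). IFITM1 stood at 340, 366 and 427 CPM untreated and at 122, 140 and 243 CPM treated.

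Cytoskeletal and adhesion genes were called higher in 13 of 28 tested members (46.4%, against 7.8% of all tested genes), with 0 called lower. The median was 1.12, or 0.85 with members at 0 in a group set to their bound, and 5 were called without the block. The count was 5 without untreated replicate 2, 7 without untreated replicate 3 and 6 without treated replicate 2. S100A4, a calcium-binding protein of motile cells, stood at 0.321, 0.523 and 0.836 CPM untreated and at 10.98, 4.79 and 3.09 CPM treated (log2 change 3.26, SE 0.57). LGALS1, galectin-1, stood at 17.7, 21.3 and 66.0 CPM and then at 63.8, 125 and 170 CPM (log2 change 1.85, SE 0.34). FLNA, an actin cross-linker, stood at 67.9, 91.6 and 138 CPM and then at 97.6, 298 and 263 CPM (log2 change 1.12, SE 0.26). S100A4 separated the groups and was highest in treated replicate 1, while LGALS1 and FLNA overlapped.

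Of 17 immediate early factors, 6 were called higher (35.3%, against 7.8% of all tested genes) and 0 lower (median 1.03). The count was 3 without the block. It was 2 without untreated replicate 2 and 3 without untreated replicate 3 or treated replicate 1 or 2. FOS stood at 1.66, 1.57 and 1.37 CPM untreated and at 11.3, 10.7 and 14.3 CPM treated (log2 change 2.97, SE 0.47, edgeR adjusted p = 0.00269). FOSL2 and JUN, its relatives in the AP-1 complex, rose by 2.37 and 1.16, and FOSB, EGR3 and IER3 were also called. FOS was even within each group, 6 h after the second dose.

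Markers of cell types other than K562 were also measured. Of 7 tested markers of other blood cells, 3 were called higher (42.9%, against 7.8% of all tested genes). The count was 2 without the block and 1 without untreated replicate 2, untreated replicate 3 or treated replicate 2. LYZ, the lysozyme of myeloid cells, stood at 2.41, 4.14 and 8.83 CPM untreated and at 23.1, 24.7 and 24.0 CPM treated (log2 change 2.30, SE 0.35). CD3D, a chain of the T cell receptor complex, was another, at no more than 1.1 CPM in any knockout library. Treated replicate 1 held 2 counts of it, under the limit of detection. The WT libraries held 5.65 to 15.5 CPM of CD3D. The 16 markers of that list summed to 7.49 to 13.98 CPM untreated and 33.3 to 41.6 CPM treated, and 3 of them held no count in any knockout library. Among fibroblast and epithelial markers, COL1A1, the collagen I chain, stood at 1.87, 2.71 and 4.65 CPM and then at 69.6, 154 and 67.3 CPM (log2 change 4.98, SE 0.35), whereas EPCAM fell by 1.15. In bulk RNA a change in the share of cells of a kind and a change of RNA per cell cannot be told apart.

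In other pathways a few members each were called. Of 20 NRF2 targets and redox enzymes tested, 2 were called higher, AKR1C3 and OSGIN1, and 3 lower, SLC7A11, NQO1 and TXN. These calls made 25% of the tested members, against 11.7% of all tested genes. The median of the list was -0.11, and 1 member was called without the block. NQO1, a quinone reductase of the NRF2 programme, stood at 81.6, 43.6 and 31.3 CPM untreated and at 27.3, 10.3 and 11.9 CPM treated (log2 change -1.69, SE 0.17, edgeR adjusted p = 0.000318). Its call was lost without the block (edgeR adjusted p = 0.107). Each same-numbered pair fell, although the level of NQO1 differed between numbers in both groups. CYP51A1 was the single member of 23 cholesterol synthesis genes called (4.35%, against 3.92% of all tested genes called lower). It stood at 101, 78.7 and 66.6 CPM untreated and at 37.8, 38.3 and 28.6 CPM treated (log2 change -1.22, SE 0.20).

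Of 25 lysosomal genes, 3 were called higher (12%, against 7.8% of all tested genes, median 0.28). The count was 1 without the block, 0 without untreated replicate 2, and 1 without untreated replicate 1 or treated replicate 2 or 3. CTSB, a lysosomal protease, stood at 115, 126 and 216 CPM untreated and at 307, 302 and 328 CPM treated (log2 change 1.08, SE 0.19), and PSAP and TFEB were the others. OPTN, an autophagy receptor, stood at 0.749, 1.47 and 2.57 CPM and then at 2.34, 14.01 and 16.6 CPM (log2 change 2.61) and overlapped between groups. It was the single member called of 19 autophagy genes (5.26%, against 7.8% of all tested genes called higher), and 0 were called without the block. In the BCL2 family the pro-apoptotic BMF, BIK and BAK1 were called higher and BCL2 lower (26.7% together, against 11.7% of all tested genes). Of the 15 genes 1 was called without the block and 1 without untreated replicate 2, untreated replicate 3 or treated replicate 2. BMF stood at 2.46, 2.24 and 4.31 CPM and then at 16.4, 12.8 and 26.9 CPM (log2 change 2.68, SE 0.48).

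Among the chaperones, HSPA1A and HSPA1B, near-identical copies of inducible HSP70 that share reads, rose by 2.05 and 1.95, DNAJB1 and BAG3 by 0.91 and 0.70, and the mitochondrial HSPD1 fell by 0.77. These were 5 calls among 17 genes (29.4%, against 11.7% of all tested genes). The count was 1 without the block, 0 without untreated replicate 1, untreated replicate 2 or treated replicate 2, and 1 without untreated replicate 3. Among the histone deacetylase genes, 1 of 11 tested was called higher, HDAC11 (9.09%, against 7.8% of all tested genes). HDAC11 stood at 2.25, 1.33 and 3.48 CPM untreated and at 4.73, 15.1 and 18.7 CPM treated (log2 change 2.24, SE 0.49). The count was 0 without the block and without replicate 2 or 3 of either group. Among 13 linker and variant histones, H1-10 and H2AX were called higher (15.4%, against 7.8% of all tested genes). In that list 0 were called without the block, without untreated replicate 2 or 3 or without treated replicate 3. Among 24 chromatin writers and repressors 1 was called higher, DNMT3B, and 1 lower, SOX5 (8.33% together, against 11.7% of all tested genes). The count was 1 without the block and 0 without untreated replicate 2 or treated replicate 1 or 2. SOX5, a transcription factor that partners BCL11A at the globin genes, stood at 20.7, 27.0 and 24.1 CPM and then at 5.28, 6.38 and 9.89 CPM (log2 change -1.76, SE 0.38). Of 10 butyrate carriers and oxidation genes tested, 2 were called higher (20%, against 7.8% of all tested genes), and 1 without the block. SLC16A3, a monocarboxylate carrier, rose by 2.67 and ACSM3, which activates medium-chain fatty acids, by 1.04.

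Several lists gave few calls or none, or calls that were all lost without the block. In 20 proteasome genes edgeR called 0, 3 had an unadjusted p under 0.05 and the DESeq2 Wald test called 0 (median -0.21). In 6 metallothioneins these 3 counts were all 0 (median 0.66). In cytosolic ribosomal proteins 1 of 21 was called, RPL30 (log2 change -0.66), or 4.76% against 3.92% of all tested genes called lower. All 21 had negative changes with a median of -0.31. In the respiratory chain 2 of 18 were called lower (11.1%, against 3.92% of all tested genes, median -0.35). Neither list had a call without the block. For the ribosomal and respiratory lists these medians were -0.19 and -0.23 when libraries were scaled by their size alone. In glycolysis 3 of 20 genes were called higher and 2 lower (25%, against 11.7% of all tested genes), with 0 called without the block and 1 to 3 in the fits without 1 library.

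The response was compared with that of WT cells by testing the difference itself. Over all 15805 genes, 3 were called for that difference (0.019%), CD24, ESAM and LINC01234, and 1115 had an unadjusted p under 0.05. That count of 3 ranged from 2 to 22 in fits without 1 library, the highest without treated knockout replicate 1. None of the 12 largest rises or 12 largest falls in the knockout was called. The smallest adjusted p among the rises was 0.0531 for PCDH1, which stood at 6.45, 8.68 and 7.83 CPM in untreated WT cells, where the untreated knockout held 0.0334 to 0.0535 CPM. CD209, ITLN1 and LINC02513 held counts in at most 1 of the 6 WT libraries, so their responses could not be compared. PCAT14 and RCN1 stood at 0.57 CPM or less in every WT library, so the comparison says little for them. Of the 12 rises 10 were called in WT, and of the 12 falls 4.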

How the data were processed

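RNA from untreated and butyrate-treated K562 cells, HRG1-KO and WT, was sequenced in 12 libraries, 3 per group, and groups and replicate numbers were read from the sample titles. What the authors deposited is 1 table of raw counts, whole numbers by gene symbol, with 28278 genes, 6319 of them at 0 throughout. FastQC 0.12.1, STAR 2.7.11b and hg38 are named in the submitters' processing notes, without role or order, and the counting tool, annotation, use of strand and filters are not given in the sources used here. Overlapping, antisense and near-identical genes may therefore carry each other's reads.

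These counts entered edgeR 4.0.16 (R 4.3.3) unchanged. The filter was filterByExpr (minimum count 10), the scaling TMM, and a quasi-likelihood model of group plus replicate number was fitted to all 12 libraries (6 residual degrees of freedom, biological coefficient of variation 0.273). The contrast was treated minus untreated HRG1-KO, and the interaction was that effect minus the WT effect. Benjamini-Hochberg adjustment ran over 15805 genes, with calls at an adjusted p under 0.05. Same-numbered knockout libraries deviated together from their group means (correlations over genes 0.443, 0.147 and 0.468). Between untreated and treated libraries of different numbers the correlations ran from -0.441 to 0.123, so the value for number 2 lay close to the highest of these. The pairing comes from the numbers in the labels. No 2 replicates held the same library (smallest chi-square per degree of freedom 80.8).

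Named genes are SLC48A1, the 12 rises and 12 falls of largest log2 change among called genes whose higher group held at least 50 counts per library and did not overlap the other group (passing over clone-like symbols), and members of 39 lists with 736 genes. The lists, the members and the tests were chosen with earlier results of these data known. Exon lengths came from GENCODE v29 and were matched by symbol, and levels per kb were added after seeing the data. Alternatives were no replicate block, the 6 knockout libraries alone, other scalings and filters, omission of libraries, and DESeq2 1.42.0. A few single-gene values are left out of the text and of 1 figure.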

Additional observations from a re-analysis of the deposited data

Results flagged for a closer look

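The difference between the knockout and the WT response passed the test in 3 genes, each by the interaction term of the edgeR fit with adjustment over all genes. LINC01234, a long non-coding RNA (chromosome 12, 113744577 to 113773683, GRCh38.p14), stood at 1.66, 1.95 and 1.3 CPM in untreated and 21.8, 38.9 and 17.8 CPM in treated knockout cells, against 24.6 to 32.6 CPM and 42.2 to 49.2 CPM in WT. The butyrate effect in HRG1-KO minus that in WT was 3.19 on the log2 scale (SE 0.33, adjusted p = 0.00456). CD24, a surface glycoprotein (chromosome 6, 106969831 to 106976855), stood at 0, 0 and 0.134 CPM and then at 1.7, 4.92 and 8.12 CPM in the knockout, against 28.4 to 38.1 CPM and 33.1 to 91.7 CPM in WT. Its difference was 5.66 (SE 0.73, adjusted p = 0.0236).

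ESAM, an endothelial adhesion molecule (chromosome 11, 124753126 to 124762290), went the other way. It stood at 57.1, 164 and 142 CPM in untreated and 58.0, 144 and 122 CPM in treated knockout cells, and at 0.162, 0.278 and 1.04 CPM and then 3.06, 13.1 and 11.6 CPM in WT. The difference was -4.21 (SE 0.45, adjusted p = 0.00456). In all 3 genes the untreated genotypes already stood far apart. Without the replicate block 0 genes were called for this difference, while 1115 had an unadjusted p under 0.05 with the block and DESeq2 called 211. The count also moved to 21 without untreated knockout replicate 3, 22 without treated knockout replicate 1, 5 and 16 without untreated WT replicates 1 and 3, and 10 without treated WT replicate 1.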

How the results depend on the processing

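No gene called for butyrate in the reported fit was called in the opposite direction under any setting run. Changes that were not called could switch sign. That of ESAM in the knockout was -0.12 on the log2 scale and reached 0.06 with 1 knockout library left out. The medians of 9 of 39 lists changed sign under at least 1 setting, each with a size of at most 0.22 in the reported fit. With library size alone these were autophagy (-0.09 to 0.03), NRF2 targets (-0.11 to 0.01) and the BCL2 family (-0.06 to 0.05). Of 2081 values for single genes under alternatives, 1582 stayed on the same side of the threshold, 494 lost the call and 5 gained it. Of 546 list medians, 485 moved by less than the spread between replicate numbers. The count of genes called for butyrate, 1852, became 537 without the replicate block and 1170 with at least 10 counts required in every library. Rises, 1232, became 443 and 793 under the same settings, and falls, 620, became 94 and 377. Falls also became 282 with library size alone and 989 without the libraries numbered 1. With 1 knockout library left out, all calls ranged from 401 to 1352, rises from 339 to 976 and falls from 62 to 407, with 0 calls of opposite sign. A filter applied after a library is left out tests other genes, and the group with 2 libraries is assumed to vary like the others. Genes called for the interaction, 3, became 0 without the replicate block, 14 with library size alone, 98 with no filter, 1 with at least 10 counts in every library, 26 without the libraries numbered 1 and 211 by DESeq2, and ranged from 2 to 22 with 1 library left out. The cause of these shifts was not tested. At these totals a gene under about 0.1 CPM per library is below 3 counts, and its change is not measurable.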

Other observations

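Semaphorins, guidance signals first known from growing axons, were in none of the lists described, and most of those tested rose. This group was chosen after its values were seen, as the symbol stem with the highest share called higher among 148 stems with at least 12 tested genes. Of 15 tested symbols beginning with SEMA, among them the antisense genes SEMA3B-AS1 and SEMA3F-AS1, 10 were called higher (66.7%, against 7.8% of all tested genes) and 0 lower, with a median log2 change of 1.58. SEMA7A stood at 14.2, 11.3 and 31.8 CPM untreated and at 83.5, 104 and 77.4 CPM treated in HRG1-KO cells (log2 change 2.34, SE 0.35, edgeR adjusted p = 0.00202). SEMA4D stood at 8.78, 7.75 and 7.72 CPM and then at 21.6, 30.03 and 18.5 CPM (log2 change 1.51, SE 0.24, edgeR adjusted p = 0.00312). These 2 were called in each fit that left out 1 knockout library, and SEMA6A was the only other member called without the block. The count of 10 became 3 without the block, and 8, 2 and 5 without untreated replicates 1, 2 and 3 and 7, 2 and 4 without the treated ones. SEMA3F stood at 0.963, 2.28 and 4.71 CPM and then at 2.71, 24.7 and 24.2 CPM, with treated replicate 1 inside the untreated range, and reads of SEMA3F and its antisense partner may not be separated. SEMA4A, SEMA4C and SEMA4G were not called.

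By the same count the stems TSPAN (5 of 16 called higher, 31.2%) and COL (9 of 29, 31%) came next and are not described further. After them, 16 of 57 symbols with the stem CD, most of them leukocyte surface antigens, were called higher (28.1%) and 0 lower. The count for CD was 10 without the block, 6 without untreated replicate 2, 10 without untreated replicate 3 and 7 without treated replicate 2. CD244, a receptor of natural killer cells, stood at 0.268, 0.143 and 0 CPM untreated and at 14.6, 10.8 and 2.03 CPM treated (log2 change 6.11, SE 0.78). CD82, a tetraspanin, stood at 2.62, 0.428 and 2.71 CPM and then at 11.9, 40.5 and 21.7 CPM (log2 change 3.57, SE 0.61). CD68, a marker of macrophage lysosomes, stood at 2.73, 4.04 and 8.53 CPM and then at 17.7, 54.5 and 30.8 CPM (log2 change 2.75, SE 0.37). In all 3 the groups did not overlap.

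In the other direction, the stem EEF had the highest share called lower, with 4 of 14 (28.6%) against 3.92% of all tested genes. Most symbols with this stem, though not all, name translation elongation factors and their modifying enzymes. Without the block 1 of these falls was called, EEF1E1, and the fits without 1 knockout library called 0 to 3 lower. EEF1B2, a nucleotide exchange subunit, stood at 753, 560 and 722 CPM untreated and at 469, 262 and 423 CPM treated (log2 change -0.84, SE 0.19). EEF1A2, the form of elongation factor 1A that is usual in muscle and neurons, was the single member called higher, at 0.535, 1.09 and 3.88 CPM and then at 42.3, 107 and 79.7 CPM (log2 change 5.36, SE 0.53, edgeR adjusted p = 0.000238). Its widespread relative EEF1A1 had a log2 change of -0.47 (SE 0.19) and was not called.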
